A study of Mus musculus with 8 samples.

Results

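Genes of hepatic fatty acid oxidation and targets of the nuclear receptor PPARα were examined in liver of mice on a high-fat diet (HFD) or a normal diet (ND). The set holds 33 genes out of 20165 features tested. They were chosen by name for their role in the pathway, with earlier results of these data known, so comparisons with all features are descriptions only. Liver RNA of 8 male C57BL/6 mice, bought at 5 weeks of age, had been hybridised to 1-colour Agilent arrays, 1 array per mouse. The groups were HFD for 9 months, ND for 9 months, HFD for 3 months and ND for 3 months, with 2 mice in each. Per the labels the HFD supplied 5.2 kcal/g with 58% fat, 25.5% carbohydrate and 16.4% protein, and the ND 3.8 kcal/g with 4.8% fat, 50.21% carbohydrate and 20.78% protein. Whether each percentage is of energy or of weight is not given here, so those of the 2 diets may not be on the same basis. The labels name no drug or transgene for any group. Mice on a diet for 9 months were older at the end of feeding than those on it for 3 months, so age and feeding time cannot be told apart. Each gene was read from its brightest probe, among those that exceeded background clearly on both arrays of some group. All 33 genes passed that filter, and all 33 were well above background on all 8 arrays.

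Fatty acids that enter the hepatocyte are joined to coenzyme A and, as acyl-carnitines, cross the inner mitochondrial membrane, where β-oxidation shortens them in cycles of dehydrogenation, hydration, a second dehydrogenation and thiolysis. Peroxisomes run a parallel pathway, with their own enzymes, for very-long-chain and dicarboxylic acids. PPARα, which binds fatty acids and their derivatives, pairs with RXR on DR1 elements, direct repeats of a hexamer with 1 base between them, and raises transcription of both pathways in liver, above all in fasting.

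RefSeq promoter windows on build GRCm38.p6, from 250 bases before to 50 after a gene's start, were available for 26 of the 33 genes (29 windows). A direct repeat of the half-site AGGTCA with 1 base between the copies was sought on both strands and stood in none of the 29 windows and in 0.0396% of all 32851 promoters. A looser repeat of AGGNCA, also with 1 base between, which includes every match of the first, stood in the window of Fabp1 alone among the 26 genes and in 0.381% of all promoters. The single half-site AGGTCA, which lies inside the first repeat, stood in the windows of 5 of the genes (Acadm, Acadvl, Cpt1a, Creb3l3 and Fabp1) and in 16.3% of all promoters. A match describes letters only. DNA outside these windows was not searched, and genes without a window were not searched at all. The windows below, written 5′ to 3′ on the gene's strand, belong to Ehhadh, the member with the smallest p-value in these data, Cpt1a, which encodes the gate of mitochondrial entry, and Fabp1, which holds the repeat. Capitals mark the half-site in Cpt1a and the looser repeat in Fabp1, both read on the opposite strand, and the Ehhadh window holds neither. Their positions are chr16:21787785-21788084 on the minus strand for Ehhadh, chr19:3323051-3323350 on the plus strand for Cpt1a and chr6:71199629-71199928 on the plus strand for Fabp1. In Fabp1, which encodes the abundant fatty acid carrier of liver, the repeat runs from 67 to 55 bases before the start.
Ehhadh: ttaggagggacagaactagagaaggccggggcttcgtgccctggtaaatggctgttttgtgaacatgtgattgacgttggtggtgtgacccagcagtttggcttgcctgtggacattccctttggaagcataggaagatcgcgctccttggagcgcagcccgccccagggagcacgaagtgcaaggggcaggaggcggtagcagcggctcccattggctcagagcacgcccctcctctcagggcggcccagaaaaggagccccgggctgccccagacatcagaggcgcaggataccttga
Cpt1a: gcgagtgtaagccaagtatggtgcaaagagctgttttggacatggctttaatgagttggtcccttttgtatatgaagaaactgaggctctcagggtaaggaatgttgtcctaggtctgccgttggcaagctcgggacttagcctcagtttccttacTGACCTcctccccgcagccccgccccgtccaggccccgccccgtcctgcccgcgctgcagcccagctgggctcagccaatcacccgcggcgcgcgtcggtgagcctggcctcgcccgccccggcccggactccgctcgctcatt
Fabp1: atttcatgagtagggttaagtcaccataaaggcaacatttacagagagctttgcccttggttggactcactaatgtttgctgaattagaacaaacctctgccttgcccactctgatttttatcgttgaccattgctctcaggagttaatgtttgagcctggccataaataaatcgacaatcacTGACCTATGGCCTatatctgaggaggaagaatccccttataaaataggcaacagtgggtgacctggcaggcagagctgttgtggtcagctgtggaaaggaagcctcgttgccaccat

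All HFD arrays lay on 1 slide and all ND arrays on the other, and on each slide 9-month arrays lay in row 2 and 3-month arrays in row 1, so diet and slide, and feeding time and row, cannot be told apart. The 75th percentile of intensity, to which each array was scaled, was 185 to 428 on HFD arrays and 482 to 597 on ND arrays. The value of 185 belonged to HFD 9 months replicate 2, where spots well above background made up 40.6%, against 43.0% to 54.1% elsewhere, and which stood apart from its group on the second principal component. Values without it are given below for comparisons that use it. For genes described by array they are printed where it moved a printed difference by over 1.5 times or changed a call. For the others they are counts. Calls in comparisons that do not use it also changed without it, as all arrays share the test's estimate of the spread. Among genes described by array these were Cpt1a, Crat, Ehhadh, Hadh, Hadhb and Fabp1 between diets at 3 months, and Pex11a between feeding times on ND. All 11 hepatocyte markers on the arrays were well above background on every array. Their summed signal, in multiples of each array's 75th percentile, was 4301 to 6854 on HFD 9-month, 5890 to 5956 on ND 9-month, 4402 to 4567 on HFD 3-month and 6344 to 6982 on ND 3-month arrays. The sum of 6 periportal markers, all well above background on every array, was 577 to 692 on HFD 9-month, 918 to 1125 on ND 9-month, 896 to 997 on HFD 3-month and 1111 to 1166 on ND 3-month arrays, so it was lower on HFD at both times, and the hepatocyte sum was lower on HFD at 3 months. The sum of 6 pericentral markers overlapped between diets at both times. It was 1227 to 1578 on HFD 9-month and 1298 to 1364 on ND 9-month arrays. At 3 months it was 1320 to 1461 on HFD and 1359 to 1432 on ND arrays. The part of these marker sums in the diet differences below was not tested. In whole liver, fewer cells of a type and less RNA per cell cannot be told apart.

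ND mice at 3 months had the lowest mean of the 4 groups for 23 of the 33 genes, against 20.2% of all features. ND mice at 9 months had the highest mean for 15 of the genes (22% of all features), and HFD mice at 3 months for 12 (26.2%). These counts describe an order of means and not a test. The heat map of the 33 genes by array shows where each stood.

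**Figure D1:**
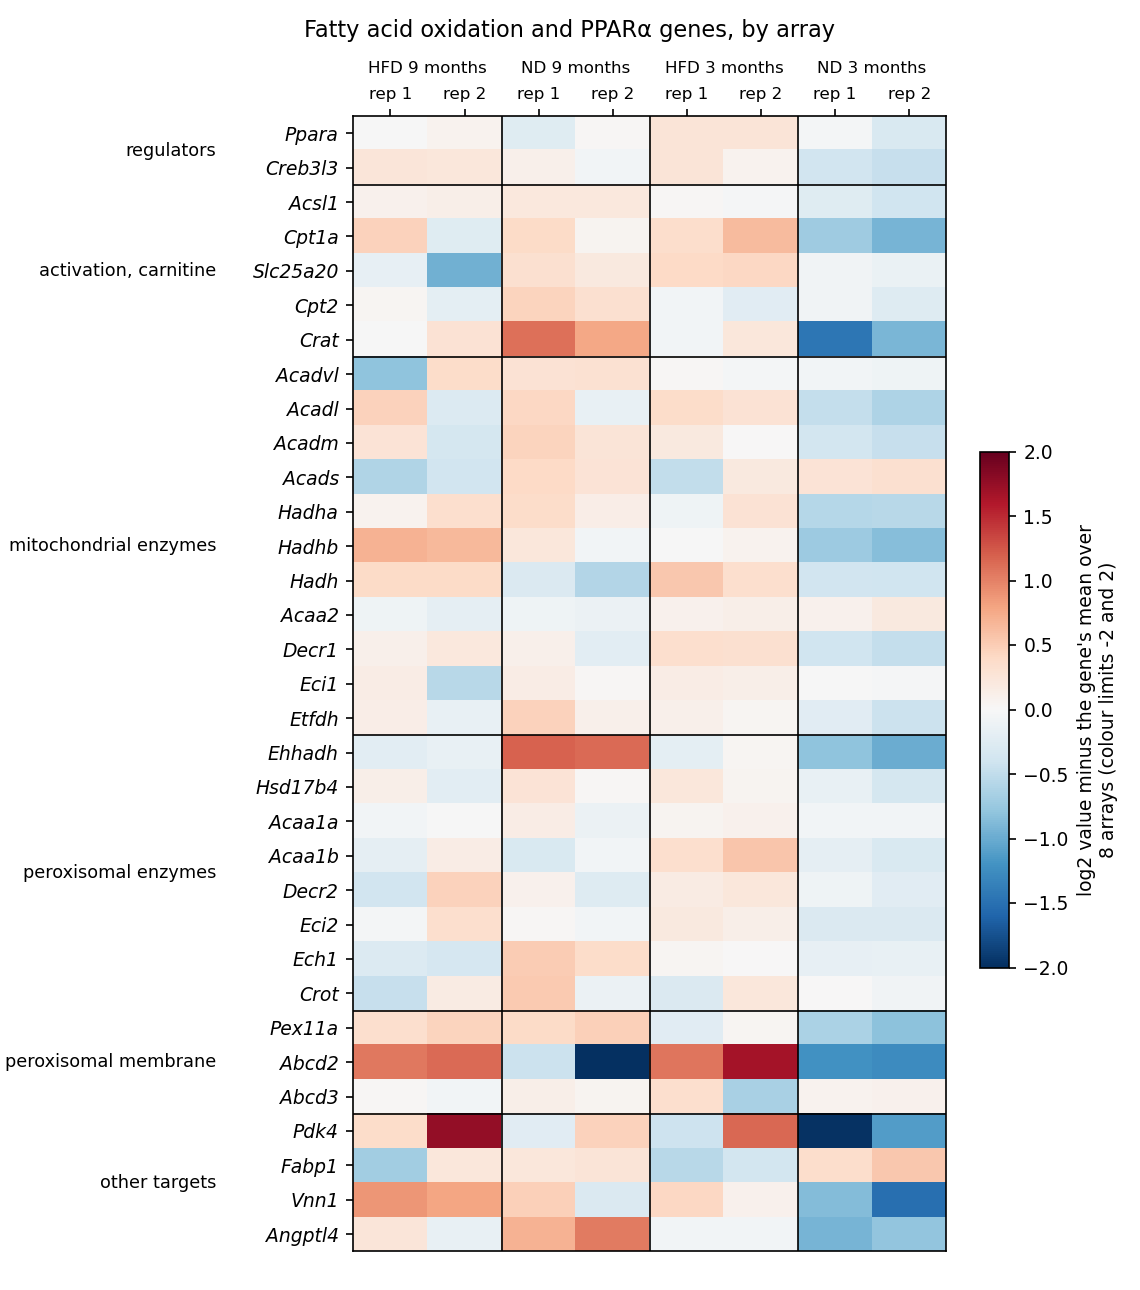
Heat map of the log2 value of each of the 33 genes on each of the 8 arrays, minus that gene's mean over the 8 arrays. Columns are arrays by group and replicate, rows are genes by role, red is above and blue below the gene's mean; most genes are blue on the ND 3-month arrays, which have the lowest mean for 23 of the 33 genes.

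After 3 months, 29 of the 33 genes had a higher mean on HFD than on ND, with a median log2 difference (HFD minus ND) of 0.51, against -0.01 over all features. The 4 with a lower mean on HFD were Acads, Acaa2, Abcd3 and Fabp1. In limma with Benjamini-Hochberg adjustment over all features, 1 gene passed an adjusted p under 0.05, Abcd2, which rose, while of all features 5.18% were called, 1.51% higher and 3.67% lower. Without adjustment, 15 genes were higher and 1 lower at p under 0.05, against 26.3% of all features in either direction (11.5% higher and 14.8% lower). Both HFD mice lay above both ND mice for 27 genes (35.6% of all features) and below them for 2, Acads and Fabp1 (35.4%). The median over the 33 genes was above 0 in each of 12 other settings (0.46 to 0.73) and with each array left out in turn (0.44 to 0.57). The call of Abcd2 and the number of calls depended on the arrays: there was no call with any one ND 3-month or HFD 3-month array left out, and there were 8 with any one HFD 9-month array left out.

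After 9 months, 11 genes had a higher and 22 a lower mean on HFD than on ND, with a median log2 difference (HFD minus ND) of -0.11, against 0.02 over all features. Abcd2 and Hadh rose and Ehhadh and Ech1 fell in limma, 4 of 33 genes, against 8.28% of all features called (3.56% higher and 4.73% lower). Both HFD mice lay above both ND mice for 6 genes (28.5% of all features) and below them for 10 (26.1%). Quantile normalization gave 1 call higher (Hadh) and 2 lower (Ehhadh and Ech1), with 16 positive and 17 negative differences, and the authors' value table gave 2 higher and 5 lower. Without HFD 9 months replicate 2, the genes called were Ehhadh, Acadvl and Fabp1, the lone HFD 9-month array being assumed to vary like the other groups. The 9-month difference then changed sign for 7 genes (Cpt1a, Acadl, Acaa2, Eci1, Acaa1b, Decr2 and Eci2), none of them called with or without that array, and moved by over 1.5 times for 12 others. The median over the 33 genes was then -0.07. Ehhadh was called with that array left out and with each of 5 others left out, and missed the threshold without ND 9 months replicate 1 (adjusted p = 0.0504) or replicate 2 (adjusted p = 0.0644). The calls of Hadh, Abcd2 and Ech1 each ended with most single arrays left out.

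The plot of diet differences sets both feeding times side by side. They rest on separate mice, 4 at each time.

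**Figure D2:**
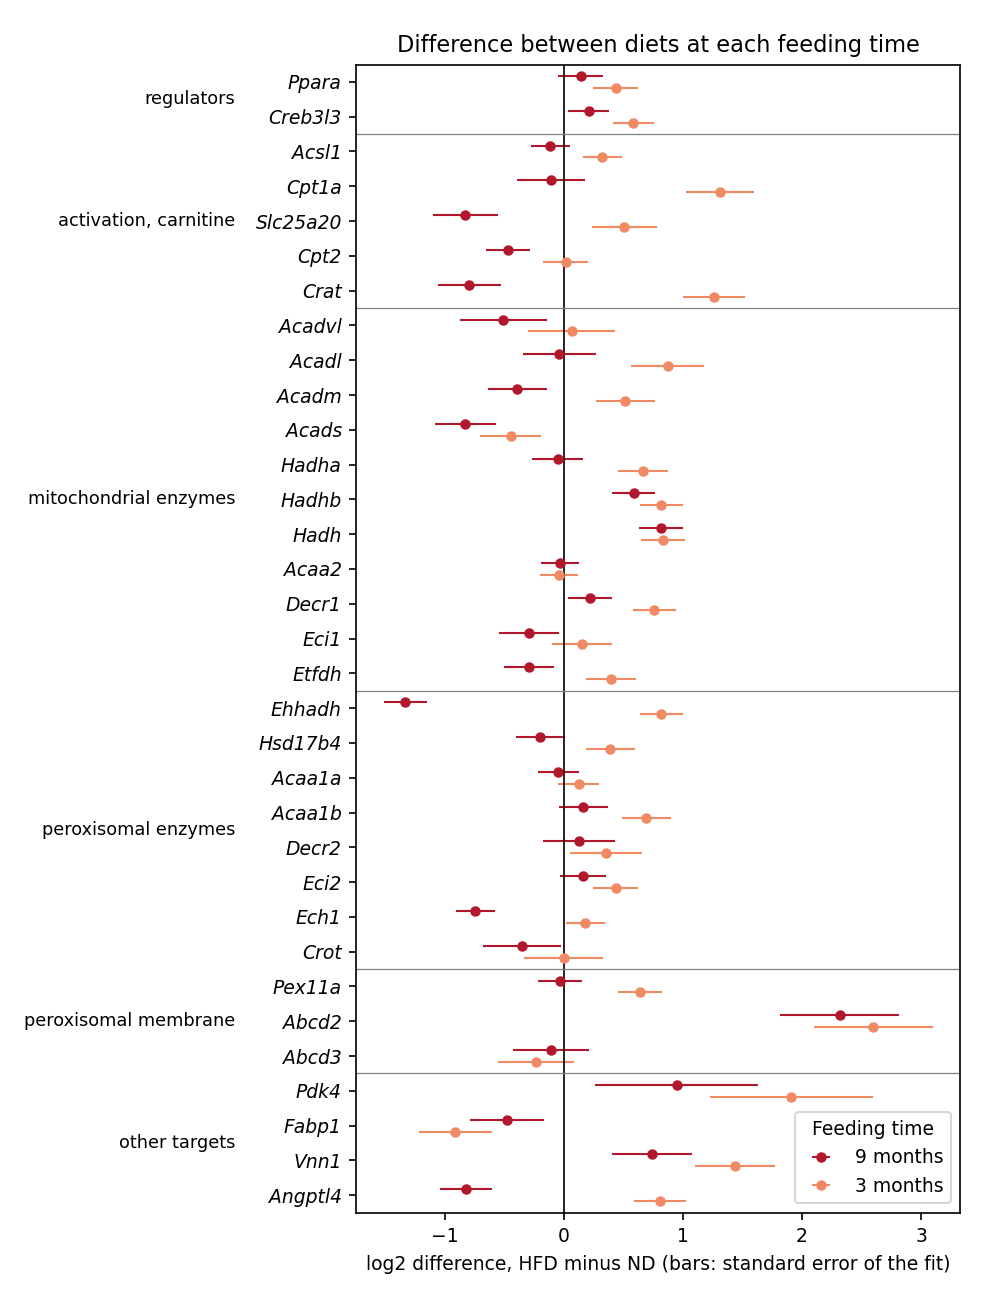
Log2 difference between diets (HFD minus ND, x axis) for each of the 33 genes, after 9 months (dark points) and 3 months (light points); bars are the standard error of the limma fit (n = 2 mice per group). At 3 months 29 of 33 points lie above 0, and at 9 months 11 do.

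The difference between diets was smaller or more negative at 9 than at 3 months for 30 of the 33 genes, with a median of -0.53 for the diet-by-duration interaction (9-month difference minus 3-month difference), against 0.06 over all features. None of the genes and none of all features passed the limma test of the interaction after adjustment, which is 0% of all features called. At an unadjusted p under 0.05 there were 8 genes, all negative (Ehhadh, Crat, Angptl4, Ech1, Cpt1a, Slc25a20, Acadm and Pex11a), against 7.62% of all features in either direction and 3.68% negative. The median stayed below 0 in each of 11 other settings and with each array left out. The interaction moved by over 1.5 times for 9 genes and changed sign for 1, Fabp1, without HFD 9 months replicate 2, and none passed. For 6 genes (Ehhadh, Crat, Angptl4, Slc25a20, Ech1 and Acsl1) the HFD mice were all above the ND mice at 3 months and all below them at 9 months, an order seen in 2.03% of all features.

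On ND, 9-month mice had a higher mean than 3-month mice for 30 of the 33 genes, with a median log2 difference (9 minus 3 months) of 0.40, against -0.07 over all features. Crat, Ehhadh and Angptl4 rose in limma, 3 of 33, against 1.04% of all features called (0.441% higher). At an unadjusted p under 0.05, 15 genes were higher and none lower, where 6.48% of all features were higher. Both 9-month mice lay above both 3-month mice for 22 genes (23.4% of all features) and below them for 2, Acaa2 and Fabp1 (37.1%). The median lay between 0.40 and 0.61 in 12 other settings. No call was left without any one of the 4 ND arrays, and without either HFD 3-month array Ehhadh was the only one left. This comparison shares the ND 3-month arrays with the 3-month comparison of diets and the ND 9-month arrays with the 9-month one.

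Of 8 clock genes, a list added after the data were seen, 2 passed limma between feeding times on ND, Dbp and Arntl, against 1.04% of all features, and the 9-month mice lay below the 3-month mice without overlap for 6 and above them for 1. Dbp, an output gene of the circadian clock, was 3.39 and 3.45 in ND 9-month mice (log2 values), against 6.43 and 6.06 in ND 3-month mice, and Arntl, which encodes the clock activator BMAL1, was 0.51 and 0.43, against -1.83 and -1.26. The adjusted p in limma was 0.0146 for Dbp and 0.0331 for Arntl. The summed signal of the 8 clock genes, of which 7 were well above background on all arrays and none at background throughout, stood at 144 to 207 on HFD 9-month arrays, 51.9 to 86.9 on ND 9-month arrays, 214 to 219 on HFD 3-month arrays and 134 to 172 on ND 3-month arrays, in multiples of each array's 75th percentile. Their part in the ND 9-month values of the fatty acid genes was not tested. The summed signal of 11 Kupffer cell and macrophage markers, 9 of them well above background on all arrays and none at background throughout, was 90.4 to 146 on HFD 9-month, 104 to 328 on ND 9-month, 67.7 to 89.8 on HFD 3-month and 47.9 to 54.3 on ND 3-month arrays, and its part was not tested either.

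On HFD, 9-month mice had a higher mean than 3-month mice for 12 genes and a lower one for 21, with a median log2 difference (9 minus 3 months) of -0.10, against -0.00432 over all features. Limma called none of the 33 after adjustment, against 0.00992% of all features. At an unadjusted p under 0.05 Hadhb and Pex11a were higher and Slc25a20 lower, against 15.5% of all features in either direction. Both 9-month mice lay above both 3-month mice for 4 genes (21% of all features) and below them for 7 (23.3%). Leaving out HFD 9 months replicate 1 gave 1 call, Slc25a20, which was lower, and leaving out any other array gave none. Without HFD 9 months replicate 2, the difference changed sign for 8 of the 33 genes and moved by over 1.5 times for 9 others.

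**Figure D3:**
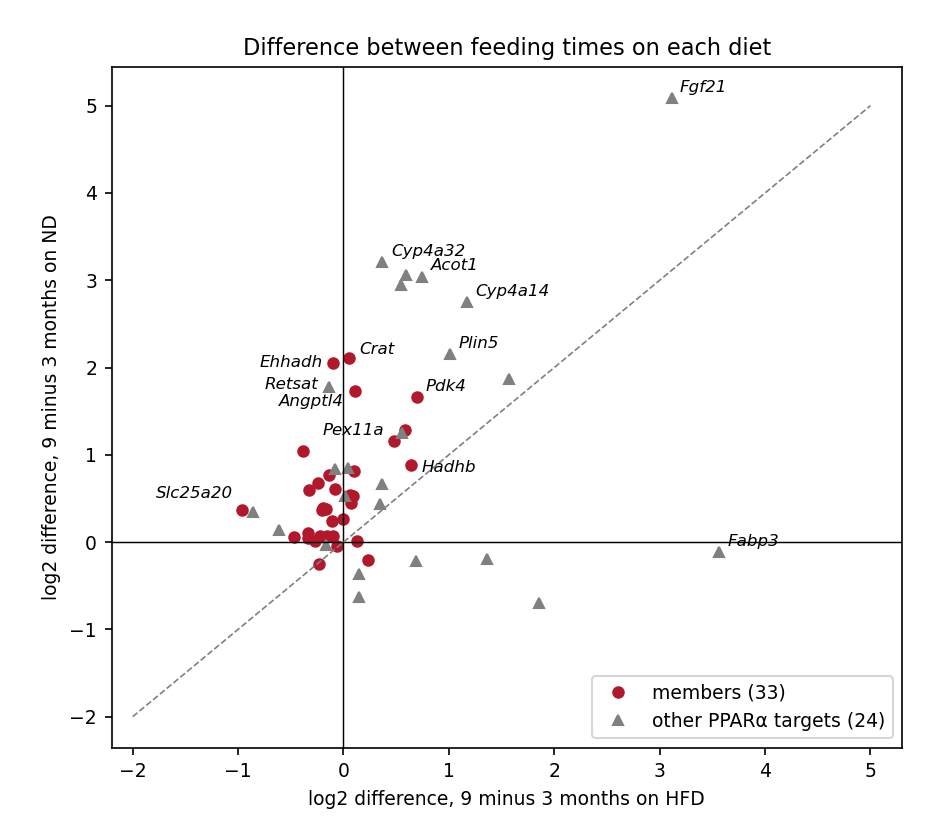
Log2 difference between feeding times (9 minus 3 months) on HFD (x axis) and on ND (y axis) for the 33 genes (circles) and 24 other PPARα targets (triangles); the dashed line marks equal differences on both diets. Crat (2.11), Ehhadh (2.05) and Angptl4 (1.73) lie far up on the ND axis and near 0 on the HFD axis.

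Of the regulators, Ppara itself had log2 values, relative to the array's 75th percentile, of 6.44 and 6.52 in HFD 9-month mice, 6.21 and 6.46 in ND 9-month mice, 6.70 and 6.70 in HFD 3-month mice and 6.40 and 6.13 in ND 3-month mice. Both HFD mice were above both ND mice at 3 months by a mean of 0.44 ± 0.19 (standard error, as for all differences here), with an adjusted p of 0.203 in limma, and the diets overlapped at 9 months (0.14 ± 0.19). Other Ppara probes gave larger differences between diets, 0.73 and 0.72 at 3 months and 0.69 and 0.72 at 9 months, and 0.03 to 0.16 between feeding times on either diet. The probe for Creb3l3, which encodes the liver transcription factor CREBH and a partner of PPARα, differed by 0.58 at 3 months and 0.21 at 9 months (adjusted p = 0.102 and 0.461 in limma), with no overlap between diets at either time.

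**Figure D4:**
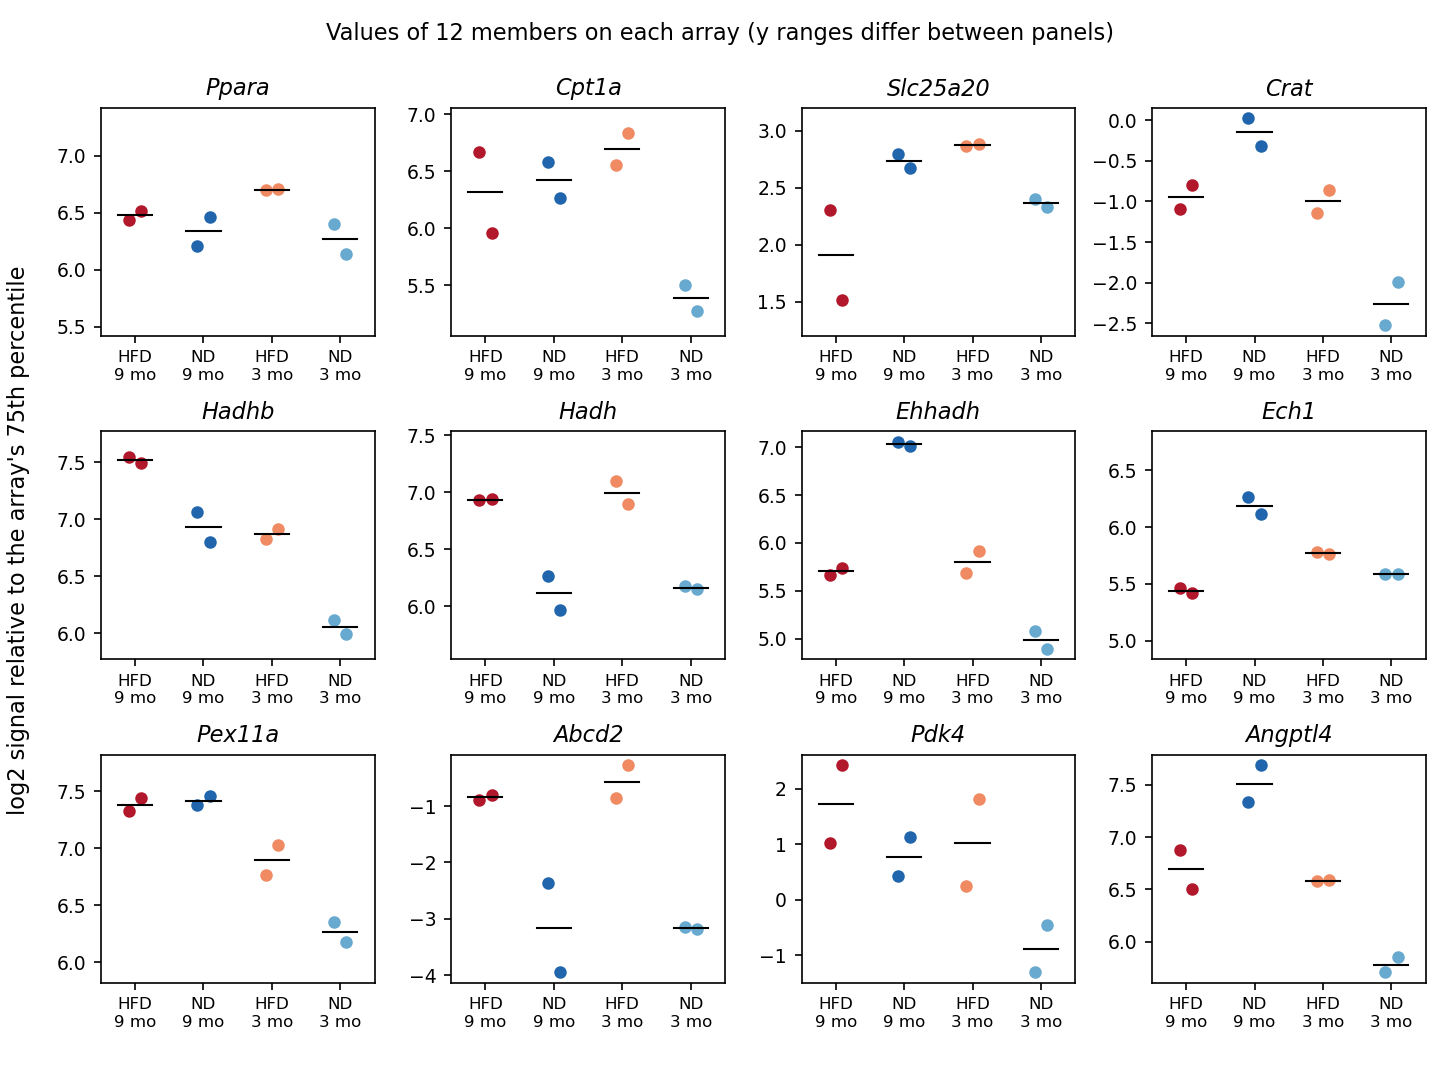
Log2 values relative to the array's 75th percentile of 12 genes on each array, by group; points are mice and lines are the means of 2 mice, and y ranges differ between panels. Ehhadh, Crat and Angptl4 are highest in ND 9-month mice and lowest in ND 3-month mice, and Abcd2 separates the diets at both times.

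Among genes of activation and the carnitine shuttle, Cpt1a encodes the outer-membrane carnitine acyltransferase that sets the rate of mitochondrial entry. Its log2 values were 6.67 and 5.96 in HFD 9-month mice, 6.58 and 6.27 in ND 9-month mice, 6.55 and 6.84 in HFD 3-month mice and 5.50 and 5.27 in ND 3-month mice. The ND 3-month mice were lowest, apart from every other mouse, and the other 3 groups overlapped. The difference between diets was 1.31 ± 0.29 at 3 months (adjusted p = 0.0545 in limma) and -0.11 ± 0.29 at 9 months, and that between feeding times was 1.04 ± 0.29 on ND (adjusted p = 0.163) and -0.38 ± 0.29 on HFD. Without HFD 9 months replicate 2 the 3-month difference passed the threshold, the 9-month difference was 0.24 and the HFD difference between feeding times was -0.03. A dimmer Cpt1a probe gave 1.15 at 3 months and -0.66 at 9 months.

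Crat, which encodes the acetyltransferase that moves short acyl groups onto carnitine, read -1.09 and -0.79 in HFD 9-month mice, 0.02 and -0.32 in ND 9-month mice, -1.14 and -0.86 in HFD 3-month mice and -2.52 and -1.99 in ND 3-month mice on the log2 scale. HFD mice of both times lay close together, between the high ND 9-month and the low ND 3-month mice. On ND, Crat rose by 2.11 ± 0.26 in 9-month over 3-month mice (4.32-fold, adjusted p = 0.0314 in limma). The difference between diets was -0.79 ± 0.26 at 9 months (adjusted p = 0.112) and 1.26 ± 0.26 at 3 months (adjusted p = 0.0503), with no overlap at either time. In the authors' value table the ND difference was 1.32 (adjusted p = 0.0613 in limma).

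Slc25a20, which encodes the carnitine-acylcarnitine translocase of the inner membrane, had log2 values of 2.30 and 1.52 in HFD 9-month mice, 2.80 and 2.67 in ND 9-month mice, 2.86 and 2.88 in HFD 3-month mice and 2.40 and 2.33 in ND 3-month mice. The HFD 9-month mice were the lowest, and their lower value came from replicate 2. The difference between diets was -0.83 ± 0.27 at 9 months (adjusted p = 0.112 in limma) and 0.51 ± 0.27 at 3 months (adjusted p = 0.284), and on HFD the 9-month mice differed from the 3-month mice by -0.97 ± 0.27 (adjusted p = 0.221). Without that replicate the 9-month diet difference was -0.43 (adjusted p = 0.135) and the difference between feeding times on HFD was -0.57 (adjusted p = 0.251). The other 2 genes of this step were Acsl1, which encodes the main long-chain acyl-CoA synthetase of liver, and Cpt2, which encodes the inner-membrane carnitine acyltransferase. Their diet differences were -0.11 and -0.47 at 9 months, with both HFD mice below both ND mice, and 0.32 and 0.02 at 3 months. A dimmer Cpt2 probe gave -1.64 at 9 months and 0.77 at 3 months, so the 2 probes of Cpt2 disagree in size, and a dimmer Acsl1 probe gave -0.18 at 9 months and 0.98 at 3 months.

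Among the 11 mitochondrial enzymes, Hadh, which encodes the short-chain hydroxyacyl-CoA dehydrogenase, read 6.93 and 6.94 in HFD 9-month mice, 6.27 and 5.97 in ND 9-month mice, 7.10 and 6.90 in HFD 3-month mice and 6.18 and 6.15 in ND 3-month mice on the log2 scale. All HFD mice were above all ND mice. Hadh was higher on HFD by 0.82 ± 0.19 at 9 months (1.76-fold, adjusted p = 0.0498 in limma) and by 0.83 ± 0.19 at 3 months (adjusted p = 0.0575). The 9-month call ended with any single array left out (0.67 to 0.97, adjusted p = 0.0666 to 0.196).

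Hadhb encodes the thiolase subunit of the trifunctional protein. Its log2 values were 7.54 and 7.49 in HFD 9-month mice, 7.07 and 6.80 in ND 9-month mice, 6.83 and 6.92 in HFD 3-month mice and 6.11 and 6.00 in ND 3-month mice. HFD mice were above ND mice at each time, and 9-month mice above 3-month mice on HFD and on ND. The difference between diets was 0.59 ± 0.18 at 9 months (adjusted p = 0.0956 in limma) and 0.82 ± 0.18 at 3 months (adjusted p = 0.0547), and that between feeding times was 0.64 ± 0.18 on HFD (adjusted p = 0.216) and 0.88 ± 0.18 on ND (adjusted p = 0.0916).

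The other 9 mitochondrial enzymes did not pass in any comparison. They are the acyl-CoA dehydrogenases Acadvl, Acadl, Acadm and Acads for chains from very long to short, Hadha for the other trifunctional subunit, the thiolase Acaa2, Decr1 and Eci1 for unsaturated chains, and Etfdh, which hands electrons to the respiratory chain. At 3 months their diet differences ran from -0.45 (Acads) to 0.87 (Acadl), with both HFD mice above both ND mice for 7 of the 9. At 9 months they ran from -0.83 (Acads, adjusted p = 0.0973 in limma) to 0.22 (Decr1), with no overlap for 1 gene higher (Decr1) and 1 lower (Acads). A dimmer Decr1 probe, well above background on all 8 arrays, had the opposite sign at 9 months (-0.31) and gave 0.92 at 3 months, so the direction of Decr1 at 9 months depends on the probe. The differences of 9 minus 3 months lay between -0.25 (Acaa2) and 0.82 (Hadha) on ND, and on HFD between -0.34 (Acads) and 0.10 (Hadha). Acads, the short-chain dehydrogenase, was lower on HFD at both times without overlap. Acadvl differed between the HFD 9-month mice, with 6.88 in replicate 1 and 8.05 in replicate 2, and without replicate 2 its 9-month diet difference was -1.09 (adjusted p = 0.0207 in limma) instead of -0.51 (adjusted p = 0.403).

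Among the 8 peroxisomal enzymes, Ehhadh differed most. It encodes the bifunctional enzyme that hydrates and dehydrogenates acyl-CoA and is a classical PPARα target in rodent liver. Its log2 values were 5.67 and 5.74 in HFD 9-month mice, 7.06 and 7.01 in ND 9-month mice, 5.69 and 5.92 in HFD 3-month mice and 5.08 and 4.89 in ND 3-month mice. HFD mice of both times overlapped, ND 9-month mice were highest and ND 3-month mice lowest.

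On ND, Ehhadh rose by 2.05 ± 0.18 in 9-month over 3-month mice (4.14-fold, adjusted p = 0.0187 in limma), and on HFD it differed by -0.10 ± 0.18. Between diets it fell by 1.33 on HFD at 9 months (log2, standard error 0.18, 2.52-fold lower, adjusted p = 0.0139 in limma). At 3 months it was higher on HFD by 0.82 ± 0.18 without overlap (adjusted p = 0.0549). The interaction was -2.15 ± 0.25 (unadjusted p = 0.00011, adjusted p = 0.228 in limma). Its 9-month diet difference lay between -1.38 and -1.15 in 12 other settings, and without HFD 9 months replicate 2 it was -1.37 (adjusted p = 0.0207).

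Ech1, which encodes a dienoyl-CoA isomerase, read 5.47 and 5.42 in HFD 9-month mice, 6.26 and 6.11 in ND 9-month mice, 5.78 and 5.76 in HFD 3-month mice and 5.59 and 5.59 in ND 3-month mice on the log2 scale. HFD mice were below ND mice at 9 months and above them at 3 months. It fell by 0.74 on HFD at 9 months (log2, standard error 0.16, 1.67-fold lower, adjusted p = 0.0443 in limma) and was higher by 0.18 ± 0.16 at 3 months (adjusted p = 0.508). Without HFD 9 months replicate 2 the 9-month difference was -0.72 (adjusted p = 0.0516), and of the single arrays only HFD 9 months replicate 1 could be left out with the call kept (-0.67 to -0.82 over the 8 arrays, adjusted p up to 0.133).

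The other 6 peroxisomal enzymes did not pass in any comparison. They are Hsd17b4, for the second bifunctional enzyme, the thiolases Acaa1a and Acaa1b, Decr2 and Eci2 for unsaturated chains, and Crot, which exports medium chains as carnitine esters. Acaa1a and Acaa1b are near-identical in sequence, and cross-hybridisation of their probes was not tested. At 3 months the diet differences of the 6 ran from 0.00 (Crot) to 0.69 (Acaa1b), with no overlap for 5. At 9 months they ran from -0.35 (Crot) to 0.16 (Acaa1b), and the diets overlapped for all 6.

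Of the 3 peroxisomal membrane proteins, Abcd2, a half-transporter for very-long-chain acyl-CoA, gave the largest difference between diets. Its log2 values were -0.88 and -0.80 in HFD 9-month mice, -2.37 and -3.95 in ND 9-month mice, -0.86 and -0.28 in HFD 3-month mice and -3.15 and -3.19 in ND 3-month mice. All HFD mice were above all ND mice. It rose on HFD by 2.32 ± 0.50 at 9 months (4.99-fold, adjusted p = 0.0431 in limma) and by 2.60 ± 0.50 at 3 months (6.06-fold, adjusted p = 0.0424). The 9-month difference was 3.11 without ND 9 months replicate 1 (adjusted p = 0.026) and 1.53 without replicate 2 (adjusted p = 0.0805), and without HFD 9 months replicate 2 it was 2.28 (adjusted p = 0.0896). The remaining 5 single arrays left out gave adjusted p of 0.0627 to 0.0982. The 3-month call ended without either ND 3-month array (adjusted p = 0.197 and 0.261) or either HFD 3-month array (adjusted p = 0.0924 and 0.125). Its signal was low, and the difference was 1.34 at 9 months and 1.24 at 3 months in the authors' value table, still past the threshold.

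Pex11a, which encodes a protein of peroxisome division, had log2 values of 7.33 and 7.44 in HFD 9-month mice, 7.38 and 7.46 in ND 9-month mice, 6.77 and 7.03 in HFD 3-month mice and 6.35 and 6.18 in ND 3-month mice. It was higher at 9 than at 3 months on both diets without overlap, by 0.48 ± 0.18 on HFD (adjusted p = 0.3 in limma) and by 1.15 ± 0.18 on ND (adjusted p = 0.0536). The diets overlapped at 9 months (-0.04 ± 0.18, and -0.09 without HFD 9 months replicate 2), and HFD mice were above ND mice at 3 months by 0.64 ± 0.18 (adjusted p = 0.0972). Abcd3, the most abundant half-transporter of the peroxisomal membrane in liver, differed by -0.11 at 9 months and -0.23 at 3 months.

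Of the other PPARα targets, Pdk4 encodes the kinase that switches off pyruvate dehydrogenase and so spares glucose. Its log2 values were 1.02 and 2.42 in HFD 9-month mice, 0.43 and 1.12 in ND 9-month mice, 0.24 and 1.81 in HFD 3-month mice and -1.31 and -0.46 in ND 3-month mice. Replicates of a group lay far apart, and ND 3-month mice were below all others. The diet difference was 0.95 ± 0.69 at 9 months and 1.91 ± 0.69 at 3 months (adjusted p = 0.405 and 0.147 in limma). The 9-month difference was 0.25 without HFD 9 months replicate 2.

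Angptl4, which encodes a secreted inhibitor of lipoprotein lipase, read 6.88 and 6.50 in HFD 9-month mice, 7.34 and 7.69 in ND 9-month mice, 6.58 and 6.59 in HFD 3-month mice and 5.71 and 5.86 in ND 3-month mice on the log2 scale. As with Ehhadh and Crat, ND 9-month mice were highest and ND 3-month mice lowest. On ND it rose by 1.73 ± 0.22 in 9-month over 3-month mice (3.32-fold, adjusted p = 0.0315 in limma). The difference between diets was -0.82 ± 0.22 at 9 months (adjusted p = 0.0698) and 0.80 ± 0.22 at 3 months (adjusted p = 0.0844), without overlap at either time.

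Vnn1, which encodes a pantetheinase, was higher on HFD without overlap at 9 months (0.74 ± 0.34) and at 3 months (1.44 ± 0.34), with an adjusted p of 0.204 and 0.0617 in limma. Fabp1, singled out here after its values were seen, went the other way. It read 8.74 and 9.65 in HFD 9-month mice, 9.66 and 9.68 in ND 9-month mice, 8.87 and 9.06 in HFD 3-month mice and 9.78 and 9.97 in ND 3-month mice on the log2 scale. HFD mice were below ND mice at both times, with a difference of -0.48 ± 0.31 at 9 months (adjusted p = 0.356 in limma) and of -0.91 ± 0.31 at 3 months (adjusted p = 0.134), and at 9 months HFD replicate 2 lay just below the nearer ND mouse. Without that replicate the 9-month difference was -0.93 and passed the threshold (adjusted p = 0.0398).

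Mitochondrial and peroxisomal genes were compared as 2 classes, 14 mitochondrial genes (the 11 enzymes with Cpt1a, Slc25a20 and Cpt2) and 11 peroxisomal ones. Relative to each gene's mean over 8 arrays, the mitochondrial mean was 0.08 and -0.10 in HFD 9-month mice, 0.26 and 0.04 in ND 9-month mice, 0.13 and 0.18 in HFD 3-month mice and -0.26 and -0.34 in ND 3-month mice (log2). The peroxisomal mean was -0.01 and 0.18 in HFD 9-month mice, 0.23 and -0.05 in ND 9-month mice, 0.16 and 0.22 in HFD 3-month mice and -0.32 and -0.40 in ND 3-month mice. Both classes were lowest in the 2 ND 3-month mice.

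The mean diet difference (HFD minus ND) was -0.16 for mitochondrial and -0.00399 for peroxisomal genes at 9 months, and 0.46 and 0.55 at 3 months. Between feeding times on ND both means were 0.45, and on HFD they were -0.17 and -0.10. The mitochondrial minus peroxisomal difference was thus -0.15 at 9 months and -0.09 at 3 months, and its sign changed with the choice of members. The spread between replicate arrays, pooled over the 4 groups, was 0.13 (SD), and replicates lay furthest apart in HFD 9-month mice. By array it was 0.09 and -0.27 in HFD 9-month mice and 0.03 and 0.09 in ND 9-month mice. At 3 months it was -0.02 and -0.03 on HFD and 0.05 and 0.07 on ND, so the diets did not overlap there. HFD 9 months replicate 2 was the array with the lowest such difference (-0.27, against -0.03 to 0.09 on the other 7), and without it the 9-month value was 0.03. Single genes differed within each class. At 9 months Hadh rose on HFD in the mitochondrial class, and Abcd2 rose while Ehhadh and Ech1 fell in the class counted as peroxisomal. Genes were placed in a class by name, and where their products lie in the cell was not measured. A setting without Ech1 and Eci2 was among 12 other settings, over which the 9-month mitochondrial minus peroxisomal difference lay between -0.29 and 0.20.

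**Figure D5:**
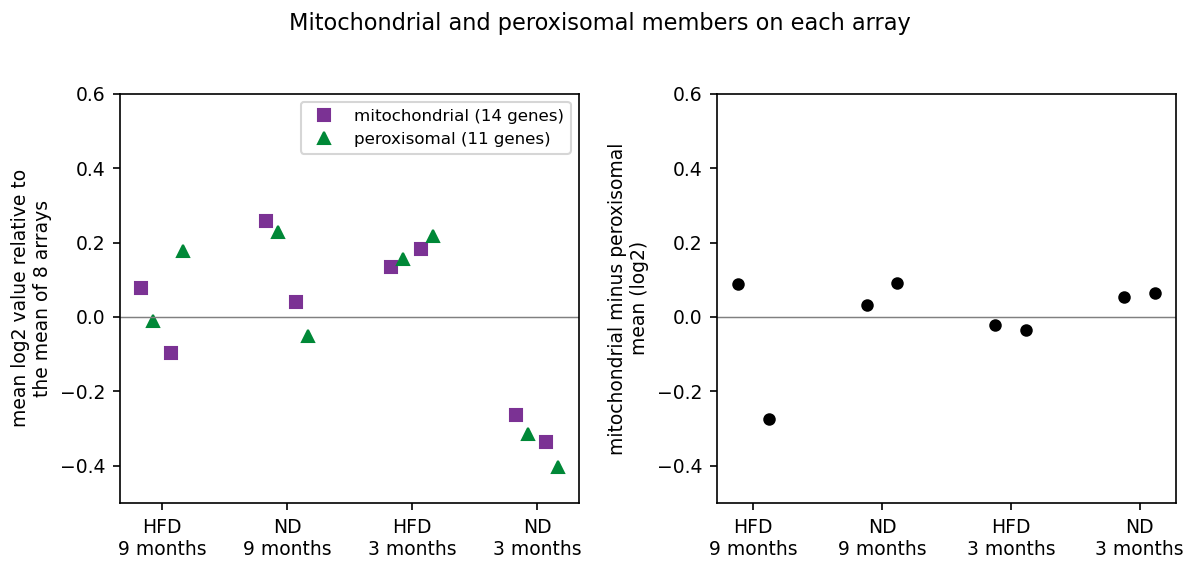
Left, the mean log2 value of 14 mitochondrial and 11 peroxisomal genes on each array, relative to the mean of the 8 arrays; right, their difference on each array (log2), each point being 1 mouse. Both classes are lowest on the ND 3-month arrays, and HFD 9 months replicate 2 has the lowest difference (-0.27).

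In 6 lists of further genes around the pathway, 118 genes were measured. At 9 months 6 were called higher and 6 lower on HFD in limma, where 3.56% and 4.73% of all features were. At 3 months 10 were called higher and 2 lower, against 1.51% and 3.67% of all features. On ND, 10 were called higher and 1 lower at 9 over 3 months, against 1.04% of all features called in either direction. On HFD between feeding times and in the interaction none was called, with 28 and 22 at an unadjusted p under 0.05, where 15.5% and 7.62% of all features were. With single arrays left out in turn, the calls on these lists numbered 3 to 16 between diets at 9 months, 0 to 18 between diets at 3 months, 0 to 15 between feeding times on HFD and 0 to 14 on ND. Few calls held with every single array left out: 3 of 12 between diets at 9 months (Acot1, Cyp4a32 and Fabp3), none of 12 at 3 months and none of 11 on ND. Without HFD 9 months replicate 2, 9 of the 12 calls at 9 months were kept, and Acot9, Cyp4a10 and Slc27a1 missed the threshold (adjusted p = 0.0626, 0.0564 and 0.0572).

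Of 25 other PPARα targets 24 were measured. At 9 months 2 rose on HFD (Fabp3 and Vldlr) and 5 fell (Acot1, Cyp4a10, Cyp4a31, Cyp4a32 and Retsat), against 3.56% and 4.73% of all features. At 3 months 4 rose (Cyp4a10, Cyp4a31, Cyp4a32 and Vldlr), against 1.51% of all features. On ND, 8 rose at 9 over 3 months, against 0.441% of all features: Acot1, Cyp4a10, Cyp4a14, Cyp4a31, Cyp4a32, Fgf21, Plin5 and Retsat. Cyp4a10, which encodes a fatty acid ω-hydroxylase, had log2 values of 8.27 and 8.11 in HFD 9-month mice, 9.33 and 9.14 in ND 9-month mice, 7.70 and 7.57 in HFD 3-month mice and 6.48 and 6.11 in ND 3-month mice. Its groups stood in the same order as those of Angptl4, and it fell by 1.05 on HFD at 9 months (adjusted p = 0.0334 in limma) and rose by 1.34 at 3 months (adjusted p = 0.0252). The 9-month call was kept with 1 of the 8 single arrays left out and the 3-month call with 4 of them, and of 12 other settings 5 lost the 9-month call (adjusted p up to 0.178). Probes of the Cyp4a genes, which are close relatives, were not tested for cross-hybridisation. Fgf21, which encodes a hormone made by liver in fasting, read 3.27 and 4.41 in HFD 9-month mice, 3.80 and 2.65 in ND 9-month mice, 0.52 and 0.93 in HFD 3-month mice and -2.44 and -1.28 in ND 3-month mice. On ND it rose by 5.09 ± 0.59 in 9-month over 3-month mice (adjusted p = 0.029 in limma). Fabp3, a fatty acid carrier best known from heart and muscle, rose by 4.66 on HFD at 9 months (adjusted p = 0.0152 in limma). Over the 11 other settings that measured it, its difference was 2.65 to 4.77, and the call was lost in 3 (adjusted p up to 0.0844). None of 5 skeletal muscle markers was well above background on any array, and the tissue or cell type behind the Fabp3 signal was not tested.

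In the list of fatty acid entry and activation (16 genes), Fabp4 rose by 3.24 and the transporter Slc27a1 fell by 1.38 on HFD at 9 months (adjusted p = 0.0151 and 0.0446 in limma), and the call of Slc27a1 was kept with 1 of 8 single arrays left out. Cpt1b, the muscle form of the carnitine acyltransferase, rose by 2.06 on HFD at 3 months, and on ND it rose by 3.19 at 9 over 3 months, as did the carnitine transporter Slc22a5 by 1.99. The Cpt1b probe was well above background on 1 of 2 ND 3-month arrays, and over 12 other settings its 3-month difference was 0.23 to 2.08 (adjusted p up to 0.657, the call lost in 5) and its ND difference 1.55 to 3.33 (the call lost in 1). In other mitochondrial oxidation (20 genes), Acad12 and Acot9 rose by 1.75 and 1.27 on HFD at 9 months, calls kept with 2 and 1 of 8 single arrays left out, and at 3 months Acot2 and Ucp3 rose by 2.32 and 1.99 and Mcee, an enzyme of propionate breakdown, fell by 1.25. In the other peroxisome list (32 genes), none was called at 9 months (5 at an unadjusted p under 0.05, against 28.7% of all features), and at 3 months the thioesterases Acot3 and Acot4 rose by 3.08 and 2.14 and Aldh3a2 by 1.36.

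Among receptor partners and cofactors (19 genes), Pparg, the receptor of adipocyte differentiation, rose by 1.40 on HFD at 9 months (adjusted p = 0.0107 in limma) and on ND fell by 1.53 at 9 over 3 months (adjusted p = 0.0271). Its log2 values were 3.56 and 3.53 in HFD 9-month mice, 2.18 and 2.12 in ND 9-month mice, 3.48 and 3.65 in HFD 3-month mice and 3.64 and 3.71 in ND 3-month mice, so that the ND 9-month mice stood apart. The summed signal of 6 adipocyte markers was 4.34 to 6.88 on HFD 9-month, 1.41 to 1.45 on ND 9-month, 15.3 to 23.7 on HFD 3-month and 5.09 to 12.5 on ND 3-month arrays, with Adipoq, Lep and Plin1 not well above background on any array, and its part in the values of Pparg and Fabp4 was not tested. Ppargc1b, which encodes a coactivator of mitochondrial genes, was not well above background in HFD 3-month mice and was at least 12.9-fold lower there than in ND 3-month mice, the dim side being set at the higher of its own signal and the lowest signal well above background on each array (adjusted p = 0.0329). Of the 7 ketone body genes none was called at 9 or 3 months, where 4 and 2 had an unadjusted p under 0.05 (28.7% and 26.3% of all features), and the smallest p between diets was that of Acat1 at 3 months (0.89 ± 0.20 higher on HFD, adjusted p = 0.0578 in limma).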

How the data were processed

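Liver RNA of 8 mice was labelled with Cy3 and hybridised to 1-colour arrays, 1 per mouse. Per the labels the 2 samples of a group are separate mice. The array files were deposited as output of Agilent Feature Extraction 10.7.1.1, per the submitters' processing notes. The processed signal, per the file headers, is an intensity with its background subtracted, and the deposited median signals of spot and background are intensity values without correction. The deposited flags (outlier, well above background) are other values of 0 or 1 per spot. The authors' value table holds log2 values whose centring and background treatment no header states, and it was used as an alternative.

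Control spots (3671) and outlier spots were left out, each array's 75th percentile was subtracted from its log2 signal (pseudocount 0), and spots of a probe were averaged, giving 55603 of 55681 probes. Kept probes were well above background (a share of 0.5 or more of their spots) on both arrays of at least 1 group (25801). The brightest kept probe stood for each gene, 20165 features, 12885 of them with a symbol. Symbols came from a RefSeq table of GRCm38.p6 through each probe's accession (26056 probes, 19752 symbols), and promoter sequences are RefSeq's on the same build. No protein sequences were used here.

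Differences were tested with lmFit and eBayes of limma 3.58.1 (R 4.3.3) on the 4 group means, with 4 residual and 2.33 prior degrees of freedom, with a threshold of 0.05 on the p adjusted over all features (Benjamini-Hochberg). With 2 mice in a group the number of arrays limits the precision. The limma fit was tested on simulated data that gave each feature the same spread in all groups. A group or array with a larger spread was not simulated. The 33 genes and the lists were chosen with earlier results of these data known. Values by array are given for members called in any of 5 contrasts, the 3 smallest p of each contrast, and Ppara, Cpt1a, Pdk4 and Angptl4, 12 genes in all, and for Fabp1, which was chosen after its values were seen. Of each pathway list the called genes are named, or the 1 with the smallest p. Figures were drawn with matplotlib 3.10.9 in Python 3.11.15.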

Additional observations from a re-analysis of the deposited data

Results flagged for a closer look

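For 6 of the 33 genes every HFD mouse lay above every ND mouse at 3 months and below every ND mouse at 9 months, an order found in 410 of all features (2.03%). The 9-month diet difference minus the 3-month one (log2) was -2.15 for Ehhadh, -2.06 for Crat, -1.62 for Angptl4, -1.33 for Slc25a20, -0.92 for Ech1 and -0.44 for Acsl1. In limma the adjusted p of this interaction was 0.228, 0.327, 0.348, 0.546, 0.441 and 0.714 in that order, so that none passed the threshold. The order rests on 4 mice at each time.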

How the results depend on the processing

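Counts of called members, and of calls on the lists of further genes, moved with the processing. The share of all features called in each setting is not given beside them. These counts therefore describe the settings and are not a result about these genes. No gene called as reported changed direction in the settings run, while the mitochondrial minus peroxisomal difference, which has no test, changed sign in some of them. For HFD against ND at 3 months, with 1 call as reported, there were 6 calls after quantile normalization, 2 with the percentile over probes detected on all arrays, 3 after normexp, 10 in the authors' value table, 0 without a filter, 6 with the filter applied to every array, 2 with a floor, 7 with trend and robust moderation, 15 with array weights and 8 with only the 4 arrays compared. At 9 months, with 4 calls, there were 7 in the authors' value table and 0 without a filter, with array weights or with only the 4 arrays. For 9 against 3 months on ND, with 3 calls, there were 0 without a filter, 5 with trend and robust moderation, 9 with array weights and 1 with only the 4 arrays. Leaving out 1 array in turn gave 0 to 8 calls at 3 months, 0 to 4 at 9 months, 0 to 1 on HFD between feeding times, 0 to 4 on ND and 0 for the interaction. A lone array of a group was assumed to vary like the other groups. The interaction and the comparison on HFD had 0 calls in all settings that left out no array. Without a filter the median of all features moved to 0.25 at 3 months and 0.30 at 9 months.

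The mitochondrial minus peroxisomal difference of means at 3 months (-0.09) became 0.12 as a difference of medians. At 9 months (-0.15) it was 0.20 with enzymes only, -0.29 without Ehhadh, a setting added after seeing the data, and -0.34 to 0.027 with single arrays left out. On HFD between feeding times (-0.07) it was 0.087 with enzymes only and -0.25 to 0.12 with single arrays left out. On ND it was 0.22 with medians, 0.16 without Ehhadh and -0.03 to 0.03 with single arrays left out. For the interaction (-0.07) it was 0.16 with enzymes only, -0.21 with medians, -0.23 without Ehhadh and -0.25 to 0.11 with single arrays left out. The causes were not tested.

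Mouse numbers are shared between groups by name only, and deviations of same-numbered arrays correlated at -0.02 to 0.14. With the mouse number as a replicate block there were 2 calls at 3 months (Pdk4 and Vnn1), 1 at 9 months (Ehhadh), 1 on ND between feeding times (Ehhadh), and 0 on HFD and for the interaction.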
